A study of Mus musculus with 6 samples.

Results

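Germline and meiosis genes were examined for H3K9me3, a methylated histone form found in silenced chromatin, in bone marrow endothelial progenitor cells (EPCs) of mice. The set held 39 genes of the piRNA pathway, the synaptonemal complex, meiotic cohesin, recombination, regulators of meiotic entry and germ cells, and other germ cell proteins. Its members are the autosomal regions whose annotated gene name was one of these genes, divided by their annotation into promoter regions and other regions. This gave 42 regions of 58511 in the whole series, annotated to 21 of the 39 genes. Promoters held 19 of the 42, and 23 lay elsewhere (12 in introns, 9 in distal intergenic sequence, 1 in an exon and 1 in a 3′ UTR). The mark was mapped by CUT&Tag, in which an antibody brings a transposase to the marked nucleosomes, which inserts sequencing adapters into the DNA around them.

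There were 6 libraries in 3 groups, all from cultured Lin-/Sca-1+/CD31+ cells of young adult C57BL/6J mice. M-EPCs came from male mice, F-EPCs from female mice with ovaries, and OVX-EPCs from female mice whose ovaries the supplier had removed. Each group had 2 libraries, which the study's methods describe as duplicate vials of frozen cells. The p-values below therefore measure the spread between such libraries, which may be technical. A lower value in bulk cells can mean fewer cells carrying the mark or less of it per cell, which cannot be told apart.

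In an animal's body cells, genes of the germline are normally silent, and their silence is kept by DNA methylation, by H3K9 methylation and by a variant Polycomb complex that binds E-box and E2F-type sequences in their promoters. In germ cells the same genes serve meiosis and the defence against transposons, in which PIWI proteins loaded with piRNAs act from cytoplasmic granules called nuage. The comparisons asked whether the mark at these genes differs between EPCs of male and female mice, and whether it differs when the ovaries are removed.

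F-EPC reads were used only on chromosomes 1 and 10 to 15 and on the first part of chromosome 16, since F-EPC replicate 1 held no reads in later regions of the tables. These are called covered regions here, 26999 in all, and they held 19 of the 42 germline regions (11 promoter and 8 other), annotated to 9 genes. Outside them F-EPC replicate 2 had 0 reads in the regions of Stag3, Piwil1, Stk31, Tdrd12 and Tex15. The libraries had 288353 to 573821 reads in all regions and 200296 to 288353 in covered regions. The 288353 reads are those of F-EPC replicate 1 in both cases, the fewest over all regions and the most in covered regions. Values per library are given as reads per 1000000 covered-region reads (RPM) or, where F-EPC cannot be compared, per 1000000 autosomal region reads (autosomal RPM). The counts behind them were small, at most 81 reads for any germline region and library, so single regions are imprecise.

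A region with the mark was listed about as often for these genes as for all genes, with no test of the difference. A promoter region was found for 15 of the 39 genes (38.5%), compared with 36.4% of 20807 autosomal protein-coding genes of GENCODE M21. Any region was annotated to 53.8% of them, compared with 59.1%, although a region can lie outside the gene it is annotated to. The synaptonemal complex had a promoter region at 4 of 6 genes and the nuage and piRNA pathway at 4 of 14. No region was listed for Tdrd1, Piwil2, Piwil4, Asz1 and Mov10l1 of the piRNA pathway, or for Syce1 and Syce2 of the synaptonemal complex. Also without a region were Smc1b, Rec8 and Hormad1 of the meiotic chromosome axis, and Spo11, Meiob, Mei1 and Rnf212 of recombination. Among regulators of meiotic entry and of germ cells, Meioc, Stra8 and Brdt had none, and neither had Tex101. Other lists of the germline had promoter regions at 12 of 37 further meiosis and piRNA genes, 3 of 25 spermatid genes and 4 of 17 oocyte genes. For the cells' own markers, 1 of 7 endothelial and 2 of 7 blood cell genes had a promoter region, although a histone mark does not measure their expression.

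The promoter regions fell into 2 kinds by position. In 9 regions the centre lay within 500 bp of the gene start, at Stag3, Dazl, Sohlh2, Ddx4, Mael, Slc25a31, Sycp1, Sycp2 and Sycp3. These held 19 to 46 CpG dinucleotides in 400 bp and a GC content of 59.0% to 74.75%. In the other 10 regions the centre lay 1086 bp or more from the gene start and CpG numbered 0 to 13. Dmc1, Tdrd5 and Syce3 had their region 1086, 1186 and 1586 bp inside the gene, and upstream regions were found for Dazl at 1266 bp and Sohlh1 at 2310 bp. Tex14 had its region 22628 bp inside the gene, and the 4 promoter regions of Tdrd9 lay 24312 to 90390 bp inside, near the starts of shorter transcripts. Median CpG was 25 at the gene starts and 6.5 in the regions farther away, compared with 17 in all 11788 autosomal promoter regions. This division by position was made after the values had been seen.

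**Figure D1:**
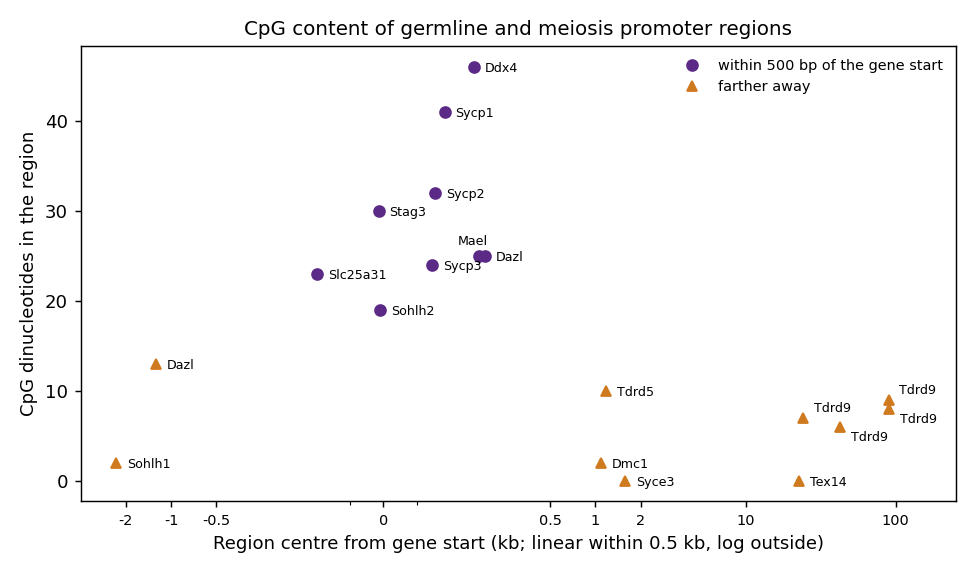
Number of CpG dinucleotides in each of the 19 germline promoter regions (y axis) against the distance of the region's centre from the gene start in kb (x axis, linear within 0.5 kb and logarithmic outside). Circles mark the 9 regions within 500 bp of the gene start, with 19 to 46 CpG, and triangles the 10 regions farther away, with 0 to 13.

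The marked region reached into 7 of the upstream windows, and the 5 that kept most of their length once exons were cut off are shown (those of Ddx4 and Stag3 did not) because they hold, or lack, the sequences that the silencing complex is known to bind. They are RefSeq promoter sequences of build GRCm38.p6, ended at the first exon of GENCODE M21, with every CACGTG (the E-box) and every TCCCGC or its reverse complement GCGGGA (an E2F-type motif) in capitals. The capitals in the Sycp3 sequence (chr10:88459337-88459568, plus strand) mark 2 E-boxes and 1 E2F-type motif. Sycp1 (chr3:102936101-102936350, minus strand) and Slc25a31 (chr3:40708621-40708854, plus strand) have 1 E-box each, and Sycp2 (chr2:178407686-178407908, minus strand) and Sohlh2 (chr3:55181794-55182027, plus strand) have no match (0). The E-boxes of Sycp3 and Slc25a31 lay inside the marked region, and that of Sycp1 lay outside it, since the region covers only 15 bases of the Sycp1 sequence.
Sycp3: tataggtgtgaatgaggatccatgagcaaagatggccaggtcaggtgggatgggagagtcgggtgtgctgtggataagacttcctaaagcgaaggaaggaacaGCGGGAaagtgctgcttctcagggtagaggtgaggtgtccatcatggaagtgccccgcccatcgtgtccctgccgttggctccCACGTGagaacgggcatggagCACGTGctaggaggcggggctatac
Sycp1: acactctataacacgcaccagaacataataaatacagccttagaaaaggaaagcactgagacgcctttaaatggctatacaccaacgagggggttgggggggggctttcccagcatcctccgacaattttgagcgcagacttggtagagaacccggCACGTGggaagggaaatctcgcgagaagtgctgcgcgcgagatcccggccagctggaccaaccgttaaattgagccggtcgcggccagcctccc
Slc25a31: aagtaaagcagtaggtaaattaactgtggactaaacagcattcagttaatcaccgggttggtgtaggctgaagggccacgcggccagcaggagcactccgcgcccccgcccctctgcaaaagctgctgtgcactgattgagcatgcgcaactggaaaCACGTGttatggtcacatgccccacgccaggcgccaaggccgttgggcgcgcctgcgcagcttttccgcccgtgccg
Sycp2: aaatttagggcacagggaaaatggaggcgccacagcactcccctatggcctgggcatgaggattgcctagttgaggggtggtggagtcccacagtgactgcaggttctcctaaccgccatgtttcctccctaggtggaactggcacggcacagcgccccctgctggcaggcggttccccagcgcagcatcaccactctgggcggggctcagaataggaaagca
Sohlh2: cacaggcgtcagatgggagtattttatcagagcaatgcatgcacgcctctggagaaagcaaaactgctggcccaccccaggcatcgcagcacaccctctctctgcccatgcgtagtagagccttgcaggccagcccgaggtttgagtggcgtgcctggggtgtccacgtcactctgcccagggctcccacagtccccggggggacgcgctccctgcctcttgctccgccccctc

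Over the 250 bases upstream of the RefSeq starts, 34 of the 39 genes had at least 1 sequence, 42 in all. Some genes had more than 1 window, and windows of Hormad1, Stk31 and Tdrd1, among others, overlap. The counts below are therefore of windows, not of independent genes. An E-box was present in 18 of these 42 windows (42.9%), compared with 6.02% of 31396 windows of all autosomal genes. The E2F-type motif was present in 14 (33.3%), compared with 17.1%, and both in 6 (14.3%), compared with 1.46%. The 42 windows had a median of 14.5 CpG and all windows a median of 6, and the motifs were not compared at equal CpG content. E-boxes were also present in windows with no germline region in them, in 13 of 35. Within the marked promoter regions themselves, 5 of 19 held an E-box, compared with 9.58% of the 11682 autosomal promoter regions of 400 bp, and 3 held the E2F-type motif, compared with 29.3%. These are matches of letters, not evidence of binding.

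The level of the mark, taken as the mean of the M-EPC and OVX-EPC libraries in autosomal RPM per kb, had a median of 45.7 over the 19 promoter regions, compared with 43.4 over all autosomal promoter regions. It ran from 11 at Dmc1 to 156.5 at Stag3, which stood at percentile 95.4 of all promoter regions. Outside promoters the median was 34.7 over 23 regions, compared with 28.3 over 45389 autosomal regions, and the highest level was 264 in a Tdrd9 intron, at percentile 99.5. Members of the set thus ranged from nearly the lowest to nearly the highest levels of their class.

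The share of reads at germline promoter regions was alike in M-EPCs and OVX-EPCs. Per 100000 autosomal region reads, M-EPC libraries had 45.9 and 44.5 (45.2 ± 0.99, SD, n = 2) and OVX-EPC libraries 40.1 and 46.6 (43.3 ± 4.62, SD, n = 2), so the groups overlapped. In covered regions M-EPC libraries had 51.4 and 54.8, F-EPC libraries 58.6 and 61.4, and OVX-EPC libraries 52.6 and 62.7 per 100000 covered-region reads. F-EPC values lay above both M-EPC values, and the OVX-EPC values ran from within the M-EPC range to above the F-EPC range. All promoter regions together held 30.7% and 27.1% of the covered-region reads in M-EPC libraries, 23.4% and 25.3% of those for F-EPC and 25.8% and 25.4% of those for OVX-EPC, the opposite order of M-EPC and F-EPC. Over all 42 germline regions, promoter and other, 26 belonged to the nuage and piRNA pathway. They held 65.2% of the germline reads in M-EPCs and 70.7% in OVX-EPCs, and Tdrd9 alone gave 29.8% and 36.9%. When only covered regions were counted, Tdrd9 made up 65.45% of the M-EPC reads at germline regions. By the same count its part was 67.49% of the F-EPC reads, and for OVX-EPC it reached 69.65%.

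**Figure D2:**
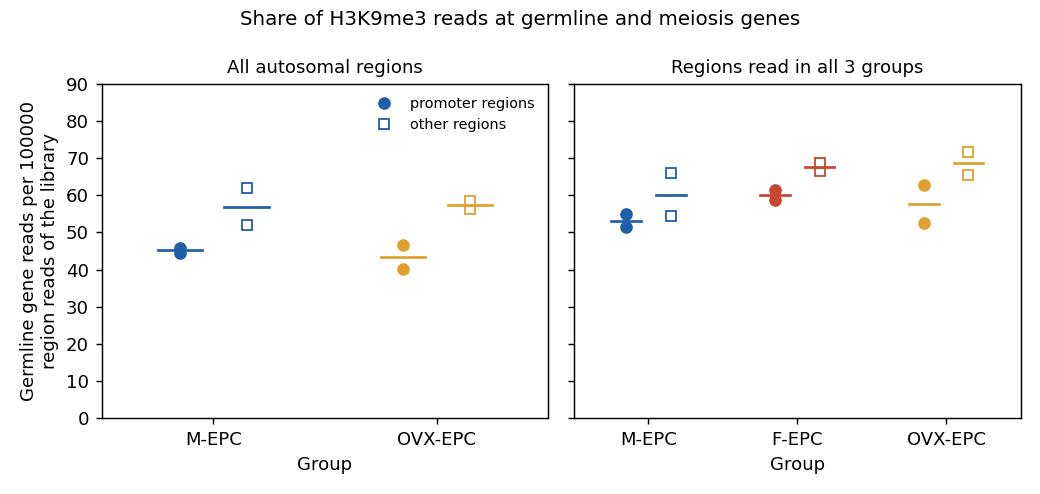
Reads at germline and meiosis regions per 100000 region reads of the library (y axis), for each library (points) and group mean (lines), over all autosomal regions (left) and over covered regions, which can be compared with F-EPC (right). Filled circles are promoter regions and open squares other regions. F-EPC promoter values of 58.6 and 61.4 lie above the M-EPC values of 51.4 and 54.8, an order that depends on the Tdrd5 region. The OVX-EPC values run from 52.6 to 62.7.

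No germline region passed the test in any comparison (limma-trend on the deposited values as log2(value + 1), with a Benjamini-Hochberg adjusted p under 0.05). Testing required a value of 10 or more in at least 2 of the 4 libraries of a comparison. In OVX-EPCs against M-EPCs 19 of the 42 regions were tested and 0 called, where 0.449% of all 16931 regions tested were called. These 16931 include regions outside the autosomes. Of the 16616 autosomal regions tested, 67 were called and 2581 had an unadjusted limma p under 0.05. In F-EPCs against M-EPCs 10 of 19 were tested and 0 called, where 1.79% of 8139 were. In OVX-EPCs against F-EPCs 9 of 19 were tested and 0 called, where 0.0127% of 7897 were. At these background rates a count of 0 among so few regions is near the background. edgeR and DESeq2 on the recovered reads also called 0 germline regions in each comparison. At an unadjusted p under 0.05 there were 2, 4 and 2 germline regions in the 3 comparisons, where 16.1%, 22.8% and 6.22% of all regions tested passed. The comparisons with M-EPCs share the same M-EPC libraries.

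Over all 19 promoter regions the median log2 fold change of OVX-EPCs over M-EPCs was -0.27, compared with -0.23 over 11786 autosomal promoter regions, and 14 of 19 (73.7%) were below 0, compared with 66.4%. Outside promoters the median was -0.08 over 23 germline regions and 0.08 over 45373 autosomal regions. Without M-EPC replicate 1 the promoter median was 0.00, and without OVX-EPC replicate 2 it was -0.07. TMM factors, another scaling, raised the median of all autosomal regions from -0.00 to 0.13, that of all promoter regions to -0.08 and the germline promoter median to -0.11. The germline promoters thus lay close to all promoter regions under both scalings. Without M-EPC replicate 1 all promoter regions had a median of -0.15, and without OVX-EPC replicate 2 a median of -0.20. Of the promoter regions, 5 were lower in both OVX-EPC libraries than in both M-EPC libraries, where 30% of all promoter regions were, and 2 were higher, where 11.4% were. Of the other regions 5 were lower without overlap, where 18.0% were, and 2 higher, where 23.0% were.

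In covered regions the median log2 fold change of F-EPCs over M-EPCs was -0.02 for the 11 promoter regions and -0.30 for all 4859 covered promoter regions. For the 8 other regions it was 0.03, compared with 0.15 over 22140. Promoter regions higher in F-EPC without overlap numbered 3 of 11, where 11.2% of all promoter regions were, and lower ones 3, where 34.8% were. Outside promoters 1 of 8 was higher, where 24.7% were, and 0 lower, where 17.8% were. The germline promoter median moved to 0.18 with TMM factors, as the median of all autosomal regions moved from 0.05 to 0.23, and to -0.38 without M-EPC replicate 2, to 0.05 without M-EPC replicate 1, to -0.13 and 0.09 without F-EPC replicates 1 and 2, and to -0.22 without Tdrd9. The median of all covered promoter regions was -0.11 with TMM factors. It was -0.42 and -0.21 without M-EPC replicates 2 and 1, and -0.24 and -0.35 without F-EPC replicates 1 and 2. The 3 covered regions at gene starts (Sycp3, Ddx4 and Mael) had a median of -0.75 and the 8 regions farther away 0.32, a division made after seeing the values and with no test. In OVX-EPC over M-EPC the division was made over all germline promoter regions, covered or not. It gave like medians, -0.28 over 9 regions at gene starts and -0.23 over the 10 farther away. At the 3 covered gene starts alone, OVX-EPC over M-EPC was -0.91 at Sycp3, -0.75 at Ddx4 and -0.11 at Mael. The 8 covered regions farther away ran from -0.31 at Syce3 to 1.01 at Tex14.

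Between OVX-EPCs and F-EPCs the median was -0.13 over the 11 promoter regions, compared with 0.06 over 4859, and 0.09 over the 8 others, compared with -0.04. Promoter regions higher in OVX-EPC without overlap numbered 2, where 19.8% of all were, and lower ones 1, where 12.9% were. Outside promoters 2 were higher, where 15.2% were, and 1 lower, where 18.0% were.

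**Figure D3:**
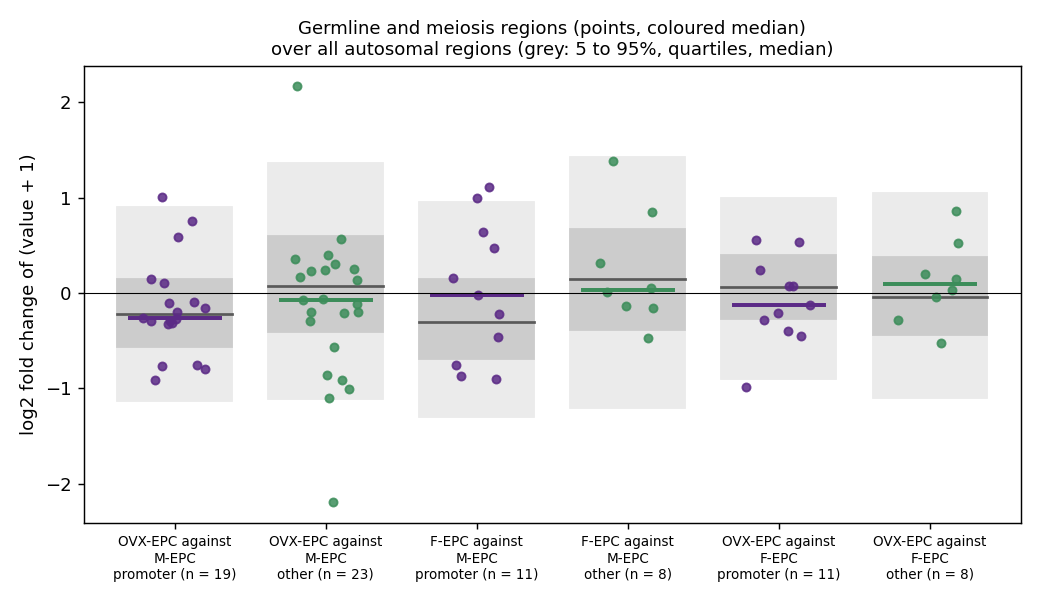
Log2 fold change of (value + 1) for every germline and meiosis region (points) in the 3 comparisons, with promoter regions in purple and other regions in green. Coloured lines are the germline medians (-0.27 and -0.08 in OVX-EPC against M-EPC) and grey boxes show the 5th to 95th percentiles, quartiles and median of all autosomal regions of the same class; most points lie inside the boxes.

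The nuage and piRNA pathway held 26 of the 42 regions, of which 13 were tested in OVX-EPCs against M-EPCs and 0 called. Tdrd5, a Tudor domain protein of the piRNA granules, had a promoter region at chr1:156302279-156302678 (mm10), 1186 bp inside the gene and 1010 bp from the start of 4930518J20Rik. Its values were 49.9 and 76.5 RPM for M-EPC libraries, 118 and 154 for F-EPC libraries, and 76.5 and 121 for OVX-EPC libraries. Both F-EPC libraries were above both M-EPC libraries, and the OVX-EPC values ran from the upper M-EPC value into the F-EPC range. The log2 fold change of F-EPC over M-EPC was 1.00 ± 0.33 (SE), the smallest p of the set, and it did not pass the threshold (limma, adjusted p = 0.098). OVX-EPC over M-EPC gave 0.58 ± 0.36 (limma, adjusted p = 0.41) and OVX-EPC over F-EPC -0.45 ± 0.30 (limma, adjusted p = 0.84). When 1 library was left out, these ran from 0.27 (without OVX-EPC replicate 2) to 0.90 (without OVX-EPC replicate 1), and from -0.77 (without OVX-EPC replicate 2) to -0.12 (without OVX-EPC replicate 1).

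Ddx4, the Vasa RNA helicase that marks germ cells, had a promoter region at its start (chr13:112652004-112652403) with 46 CpG, the most of the set. Its values were 54.9 and 59.5 RPM for M-EPC, 24.3 and 39.6 for F-EPC, and 33.5 and 31.4 for OVX-EPC libraries. Every F-EPC and OVX-EPC library was below both M-EPC libraries, on 7 to 14 reads per library. Log2 fold changes over M-EPC were -0.87 ± 0.43 in F-EPC (limma, adjusted p = 0.23) and -0.75 ± 0.47 in OVX-EPC (limma, adjusted p = 0.41). In both comparisons this region reached the value needed for testing only in the M-EPC libraries, where it was higher. A second Ddx4 region, in an intron, had 0 to 4 reads per library and was not tested. Mael, a nuage protein of transposon silencing, had 5 to 10 reads per library at its start (chr1:166238260-166238659), with log2 fold changes of -0.22 in F-EPC and -0.11 in OVX-EPC over M-EPC. Its distal region had 1 to 3 reads per library.

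Tdrd9, a Tudor domain RNA helicase, held 8 regions, more than any other gene of the set. The region with the most reads lay in an intron at chr12:112022108-112022507, with 245 and 272 RPM for M-EPC, 281 and 218 for F-EPC, and 239 and 260 for OVX-EPC libraries. The 3 groups overlapped there, and the log2 fold changes of F-EPC and OVX-EPC over M-EPC were -0.14 ± 0.23 and -0.07 ± 0.24, which turned to 0.07 and 0.10 with TMM factors. In the neighbouring intron region at chr12:112020744-112021143 the M-EPC libraries had 170 and 123 RPM, the F-EPC libraries 142 and 131, and the OVX-EPC libraries 201 and 188. Both OVX-EPC libraries were above all others, with log2 fold changes of 0.40 ± 0.28 over M-EPC (limma, adjusted p = 0.47) and 0.52 ± 0.26 over F-EPC (limma, adjusted p = 0.79).

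The intron region at chr12:112016494-112016893 had 180 and 59.5 RPM for M-EPC, 180 and 226 for F-EPC, and 134 and 139 for OVX-EPC libraries. Its M-EPC replicates were far apart (36 and 14 reads), and the log2 fold change of F-EPC over M-EPC, 0.85 ± 0.36 (limma, adjusted p = 0.17), ran from 0.05 without M-EPC replicate 2 to 1.65 without replicate 1. For OVX-EPC over M-EPC it was 0.36 ± 0.36 and turned to -0.41 without M-EPC replicate 2. OVX-EPC was below F-EPC in every library, with a log2 fold change of -0.53 ± 0.26 (limma, adjusted p = 0.79). Thus these neighbouring intron regions of Tdrd9 had opposite directions between OVX-EPC and F-EPC, and neither passed the test.

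Among the promoter regions of Tdrd9, the one at chr12:112013768-112014167 had 59.9 and 85 RPM for M-EPC, 114 and 99.1 for F-EPC, and 105 and 148 for OVX-EPC libraries. All 4 libraries of female mice were above both M-EPC libraries. Its log2 fold changes were 0.75 ± 0.33 in OVX-EPC over M-EPC (limma, adjusted p = 0.27), one of the 2 germline regions with an unadjusted p under 0.05 there, and 0.47 ± 0.33 in F-EPC over M-EPC (limma, adjusted p = 0.38). The region at chr12:111995672-111996071 had 84.9 and 80.8 RPM for M-EPC, 93.6 and 79.2 for F-EPC, and 62.2 and 76.1 for OVX-EPC libraries. Its OVX-EPC values were the lowest, with a log2 fold change of -0.27 ± 0.35 over M-EPC, and F-EPC overlapped M-EPC at -0.02 ± 0.32. The remaining promoter regions of Tdrd9, 89676 and 90390 bp inside the gene, had 1 to 13 reads per library. In its 3′ UTR M-EPC libraries had 0 and 3 reads, F-EPC 4 and 6, and OVX-EPC 5 and 12, too few to be tested.

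Over all 8 Tdrd9 regions the M-EPC libraries had 81.9 and 67.2 reads per 100000 covered-region reads, the F-EPC libraries 90.5 and 80.8, and the OVX-EPC libraries 81.3 and 94.5. The groups overlapped. The regions of the locus did not move together: 5 of 8 were above 0 in OVX-EPC over M-EPC and 4 of 8 in F-EPC over M-EPC.

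**Figure D4:**
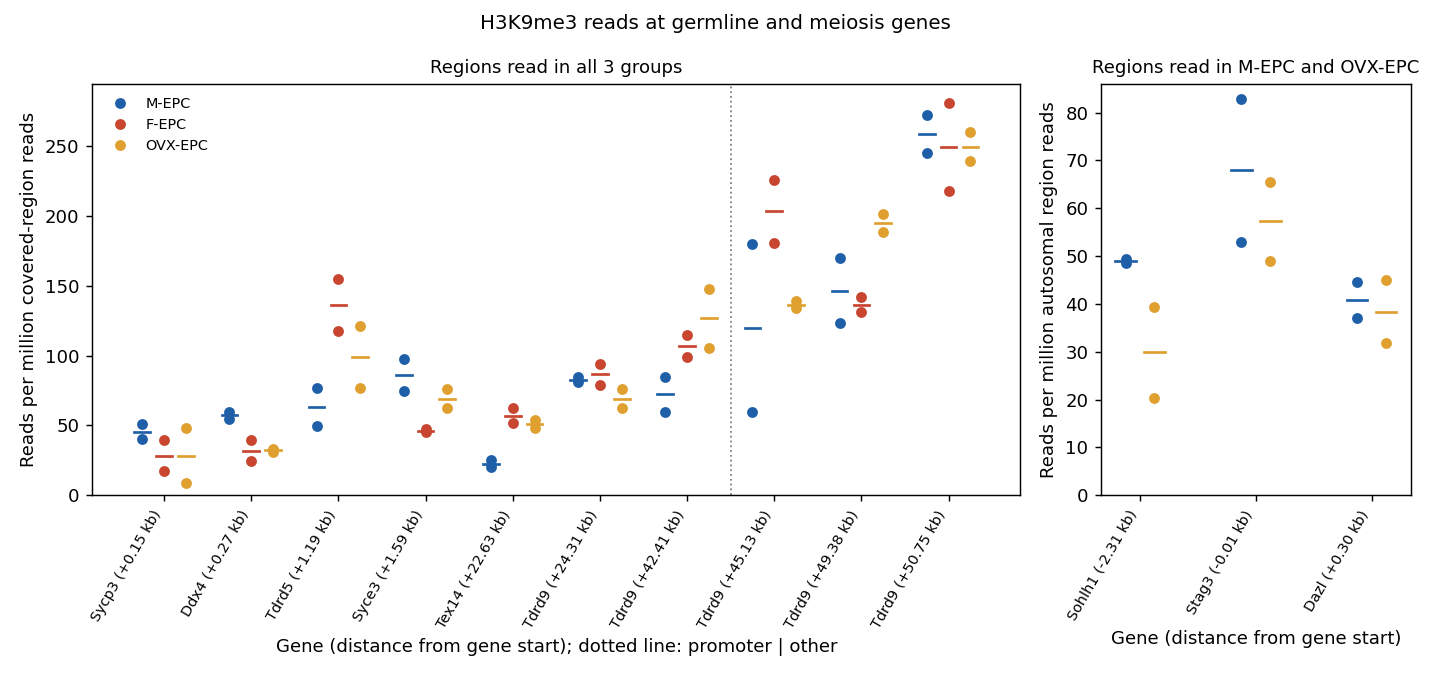
RPM over covered-region reads (left, 10 regions in 3 groups) and autosomal RPM (right, 3 regions in M-EPC and OVX-EPC) for each library (points) with the group mean (lines), by gene and distance from the gene start in kb. Promoter regions stand left of the dotted line and the 3 Tdrd9 introns right of it. At Tex14 and Tdrd9 (42408 bp from the gene start) both female groups lie above M-EPC, and at Ddx4 both lie below. Against M-EPC, Tex14 and Ddx4 reached the value needed for testing only in the libraries where they are higher.

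Some regions named after piRNA genes lay in other genes. Piwil1, a PIWI protein, was the annotated gene of 6 regions, of which 3 lay in the neighbouring gene Rimbp2, whose product acts at synapses, and 3 called distal intergenic lay within the span of Piwil1 in GENCODE M21. The Tdrd6 region lay in Pla2g7 and 1 Dmc1 region in Fam227a, 232 bp from its start. The Rimbp2 regions had 12 to 30 reads per library, and their log2 fold changes of OVX-EPC over M-EPC were -0.19, -0.08 and 0.13. The regions within Piwil1 itself had 3 to 15 reads, and at chr5:128728724-128729123 the M-EPC libraries had 9 and 10 reads and the OVX-EPC libraries 5 and 3. Without the 5 regions in other genes the median over other regions in OVX-EPC against M-EPC was -0.16 in place of -0.08.

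The other piRNA genes had regions outside promoters and none was called. Stk31, a Tudor domain protein with a kinase-like part, had 4 regions, of which the distal one at chr6:49490876-49491627 had 16 and 19 reads for M-EPC and 11 and 12 for OVX-EPC libraries, a log2 fold change of -0.57 ± 0.36 (limma, adjusted p = 0.43), and another had 0.17 ± 0.36. Tex15, which is needed for silencing of transposons in the male germline, had 1 distal region with 8 to 13 reads and a log2 fold change of 0.31 ± 0.43. Tdrd12, a Tudor domain helicase, had an intron region with 6 and 2 reads for M-EPC libraries and 0 in both OVX-EPC libraries, which allows up to 3 reads in each (6.13 and 5.61 autosomal RPM, counting error only). Tdrd6, a protein of the chromatoid body, had 2 and 4 reads for M-EPC and 6 and 2 for OVX-EPC libraries.

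The synaptonemal complex, the protein zipper between paired meiotic chromosomes, had promoter regions at Sycp1, Sycp2, Sycp3 and Syce3, and 0 were called. Syce3, a central element protein, had a region 1586 bp inside the gene (chr15:89408717-89409116) with 0 CpG. Its values were 74.9 and 97.8 RPM for M-EPC, 45.1 and 47.5 for F-EPC, and 62.2 and 76.1 for OVX-EPC libraries. F-EPC values were the lowest, and OVX-EPC overlapped M-EPC in RPM, although not in the deposited values. The log2 fold change of F-EPC over M-EPC was -0.90 ± 0.36 (limma, adjusted p = 0.15), of OVX-EPC over M-EPC -0.31 ± 0.35 (limma, adjusted p = 0.68), and of OVX-EPC over F-EPC 0.55 ± 0.37 (limma, adjusted p = 0.84).

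Sycp3, an axial element protein, had 39.9 and 51.0 RPM for M-EPC, 17.3 and 39.6 for F-EPC, and 47.8 and 8.96 for OVX-EPC libraries at its start (chr10:88459516-88459915), where the region also overlaps Chpt1. The OVX-EPC replicates (10 and 2 reads) differed more than the groups did, and the log2 fold change of OVX-EPC over M-EPC, -0.91 ± 0.68 (limma, adjusted p = 0.50), turned to 0.06 without OVX-EPC replicate 2. For F-EPC over M-EPC it was -0.75 ± 0.51 (limma, adjusted p = 0.37), from -1.27 without F-EPC replicate 2 to -0.24 without F-EPC replicate 1. Sycp2, its partner in the axial element, and Sycp1, the transverse filament, had F-EPC reads that could not be compared. Sycp2 had 9 and 16 reads for M-EPC and 9 and 10 for OVX-EPC libraries, and Sycp1 had 8 and 4 for M-EPC and 6 and 7 for OVX-EPC libraries.

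Per 100000 covered-region reads, Syce3 and Sycp3 together had 11.5 and 14.9 for M-EPC, 6.24 and 8.72 for F-EPC, and 11 and 8.51 for OVX-EPC libraries. Both F-EPC values and both OVX-EPC values were below both M-EPC values. The share of covered-region reads in all promoter regions was likewise lower in these libraries. It was 30.7% and 27.1% for M-EPC, 23.4% and 25.3% for F-EPC, and 25.8% and 25.4% for OVX-EPC libraries. With all 4 genes, per 100000 autosomal region reads, M-EPC libraries had 8.09 and 9.71 and OVX-EPC libraries 7.77 and 6.74. No test was run over such sums.

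Of meiotic cohesin and the chromosome axis, Stag3 and Hormad2 had a region. Stag3, the meiosis-specific cohesin subunit, had a region across its start (chr5:138280027-138280426), 222 bp from the start of the divergent gene Gpc2. It had 82.9 and 53.0 autosomal RPM in M-EPC and 49.1 and 65.5 for OVX-EPC libraries. The groups overlapped, with a log2 fold change of -0.28 ± 0.30 (limma, adjusted p = 0.67) that turned to 0.06 without M-EPC replicate 1. Hormad2, a protein of the unpaired axis, had an intron region with 5 to 10 reads per library over the 6 libraries.

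Meiotic recombination was represented by Dmc1 alone, the recombinase of meiotic strand exchange. Its promoter region (chr15:79603823-79604222) had the lowest level of all germline promoter regions, at percentile 2.71. The libraries had 1 to 8 reads there, and the region named after Dmc1 in Fam227a had 4 to 7.

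Regulators of germ cells and of meiotic entry had 5 regions, none of which could be compared with F-EPC, and all 4 promoter regions and the 1 intron region had negative log2 fold changes of OVX-EPC over M-EPC, where 66.4% of all autosomal promoter regions and 46.1% of the other regions did, although the Dazl start turned with TMM factors, edgeR, DESeq2 and without OVX-EPC replicate 2. None (0) were called. Sohlh1, a helix-loop-helix factor of spermatogonia and oocytes, had a region 2310 bp upstream of its start (chr2:25849358-25849757). It had 48.5 and 49.5 autosomal RPM in M-EPC and 20.4 and 39.3 for OVX-EPC libraries. The groups did not overlap, and the log2 fold change was -0.80 ± 0.34 (limma, adjusted p = 0.26), from -1.25 without OVX-EPC replicate 2 to -0.35 without OVX-EPC replicate 1. Its partner Sohlh2 had 5 and 12 reads for M-EPC and 2 and 8 for OVX-EPC libraries at its start, and 5 and 6 against 1 and 5 in an intron.

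Dazl, an RNA-binding protein that germ cells need to enter meiosis, had 44.5 and 37.1 autosomal RPM in M-EPC and 45.0 and 31.8 for OVX-EPC libraries at its start (chr17:50293132-50293531). The groups overlapped, and the log2 fold change, -0.15 ± 0.33 (limma, adjusted p = 0.85), was 0.00 with TMM factors, 0.01 with edgeR, 0.03 with DESeq2 and 0.07 without OVX-EPC replicate 2. Its upstream region had 12 and 9 reads for M-EPC and 7 and 10 for OVX-EPC libraries.

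Tex14, a protein of the bridges between germ cells, had a region at an inner start (chr11:87427494-87427893) with 0 CpG and 65.75% repeat sequence. Its values were 20 and 25.5 RPM for M-EPC, 62.4 and 51.5 for F-EPC, and 47.8 and 53.7 for OVX-EPC libraries. All 4 libraries of female mice were above both M-EPC libraries, with 10 to 18 reads against 4 and 6. The log2 fold changes over M-EPC were 1.12 ± 0.47 in F-EPC (limma, adjusted p = 0.17) and 1.01 ± 0.58 in OVX-EPC (limma, adjusted p = 0.38), and -0.13 ± 0.38 in OVX-EPC over F-EPC (limma, adjusted p = 0.98). Against M-EPC, the Tex14 region reached the value needed for testing only in the F-EPC and OVX-EPC libraries, where it was higher. Slc25a31, the ADP/ATP carrier of germ cells, had 3 and 3 reads for M-EPC and 6 and 1 for OVX-EPC libraries at its start, and 10 and 10 against 5 and 4 in a region 3624 bp upstream.

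Further lists of the germline, none of them members of the set, were read from the same fits. Of 43 regions of other meiosis and piRNA genes 20 were tested in OVX-EPC against M-EPC and 1 called, where 0.449% of all regions tested were. It was an intron region annotated to Hsf2bp, named here after its values were seen, which was lower in OVX-EPC (log2 fold change -1.50 ± 0.35, limma, adjusted p = 0.044). None (0) of their 18 promoter regions was called, and these had a median of -0.35. Spermatid genes had a median of -0.38 over 4 promoter regions and oocyte genes -0.18 over 4, and 0 of their regions were called. All autosomal promoter regions had a median of -0.23.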

How the data were processed

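H3K9me3 CUT&Tag signal was used from 6 libraries, 2 from each of the 3 groups. Per the study's methods, 25-base reads were aligned to mm10 with Bowtie2, duplicates were removed with Picard, reads of mapping quality under 10 were dropped, and regions were called with MACS and annotated; the submitters' processing notes name BWA in place of Bowtie2. The authors deposited signal values per region in 3 tables, 1 for each pair of groups, scaled separately. In each, 100% of the values were whole reads divided by 1 factor per library (tolerance 0.001), so reads were recovered. The authors' fold changes and p-values in these tables were not used.

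limma 3.58.1 (trend) was fitted in R 4.3.3 to log2(value + 1) over all regions with a value of at least 10 in at least 2 of the 4 libraries of a pair, with Benjamini-Hochberg adjustment over all regions tested and a threshold of 0.05. edgeR 4.0.16 and DESeq2 1.42.0 on recovered reads were alternatives, as were other pseudocounts, filters and scalings. The fits were tested on simulated data for OVX-EPC against M-EPC. Every gene with a region was named. Values per library were given for the 10 promoter regions that passed the filter in OVX-EPC against M-EPC, for any region called in a comparison (0) and for the 3 regions outside promoters with the most reads; read counts of the remaining regions were added after their values were seen. Members and lists were chosen with earlier results of these data known. Depth was 288353 to 573821 region reads per library, the lowest being F-EPC replicate 1, whose reads all lay in covered regions. Intervals and floors cover counting error only.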

Additional observations from a re-analysis of the deposited data

How the results depend on the processing

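No germline region was called in any fit with all 4 libraries of a comparison. In OVX-EPC against F-EPC these fits called 0 or 1 of all regions, so the lack of germline calls says little there. Of the values of named regions under an alternative, 338 kept their direction and 30 turned. The number of all regions called varied between fits. In OVX-EPC against M-EPC it was 76, and 40 with a pseudocount of 0.1, 145 without a filter, 123 with a value of at least 30 in 2 libraries, 40 with TMM factors, 137 with edgeR, 8 with DESeq2 and 0 to 23 when 1 library was left out (0 without either M-EPC replicate). In F-EPC against M-EPC it was 146, and 242 with a pseudocount of 5, 231 without a filter, 22 with TMM factors, 4 with DESeq2 and 0 (without M-EPC replicate 1) to 181 when 1 library was left out. In OVX-EPC against F-EPC it was 1, and 0 with a value of at least 30, with DESeq2 and with the replicate block, and 0 to 16 (without OVX-EPC replicate 2) when 1 library was left out. The cause of these moves was not tested. With the replicate number as a block the counts were 103, 166 and 0, and same-numbered libraries had correlations of deviations of -0.018, -0.052 and -0.031, so the numbers were not treated as pairs.

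The median log2 fold change of germline promoter regions in OVX-EPC over M-EPC, -0.267, was -0.128 with a pseudocount of 5, -0.113 with TMM factors and -0.324 to 0.0 when 1 library was left out. In other germline regions it was -0.076, and 0.080 with TMM factors, -0.159 without regions in other genes (chosen after seeing the data) and -0.139 to -0.008 when 1 library was left out. In F-EPC over M-EPC the promoter median of -0.020 was 0.183 with TMM factors, -0.219 without Tdrd9 (also chosen after seeing the data) and -0.377 to 0.087 when 1 library was left out; in OVX-EPC over F-EPC -0.128 was 0.031 with edgeR, -0.001 with DESeq2 and -0.173 to 0.147 when 1 library was left out. The medians are over unfiltered regions, so the filters give no separate value. With only promoter regions within 1 kb, germline promoter reads per 100000 were 28.94 in M-EPC and 30.15 in OVX-EPC (autosomal), and 30.3 for M-EPC, 41.17 for F-EPC and 37.41 for OVX-EPC (covered).

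Directions turned for these named regions, none of them called. With TMM factors, edgeR and DESeq2, in that order, OVX-EPC over M-EPC was 0.095, 0.086 and 0.094 at Tdrd9 chr12:112022108 and 0.002, 0.011 and 0.027 at the Dazl start. F-EPC over M-EPC was 0.183, 0.204 and 0.213 at Tdrd9 chr12:111995672, 0.047, 0.051 and 0.055 at chr12:112020744, and 0.073, 0.087 and 0.097 at chr12:112022108, and OVX-EPC over F-EPC was -0.002, -0.025 and -0.024 at the last. When 1 library was left out, OVX-EPC over M-EPC ran from -1.062 to 0.061 at Sycp3, -0.412 to 1.128 at Tdrd9 chr12:112016494, -0.132 to 0.001 at chr12:112022108, -0.378 to 0.069 at Dazl and -0.617 to 0.063 at Stag3. F-EPC over M-EPC ran from -0.127 to 0.087 at chr12:111995672, -0.419 to 0.099 at chr12:112020744 and -0.309 to 0.036 at chr12:112022108, and OVX-EPC over F-EPC from -0.002 to 0.489 at chr12:112013768 and -0.143 to 0.211 at chr12:112022108. Of the 31 values of named regions, these 10 turned when 1 library was left out and a further 12 moved by over 1.5 times without turning, among them Ddx4 (-1.185 to -0.551) and Sycp3 (-1.27 to -0.236) in F-EPC over M-EPC and Tdrd5 (0.272 to 0.898) and Syce3 (-0.486 to -0.139) in OVX-EPC over M-EPC. With a median of 5 to 8 reads per covered region and library, depth limits each single region.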
